A study of Homo sapiens with 8 samples.

Results

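The genes described here are those whose mRNA in SKBR-3 cells treated with lapatinib and JQ1 together lay away from the level that the separate effects of the drugs add up to. SKBR-3 is a human breast cancer cell line with an amplified ERBB2 gene, which encodes the receptor kinase HER2. Poly(A) RNA was sequenced after 48 h with the vehicle DMSO, with 300 nM lapatinib, which inhibits the HER2 and EGFR kinases, with 300 nM JQ1, which blocks BET bromodomains, or with both drugs at those doses. The same 4 treatments were given to BT474m1, a HER2-amplified derivative of the BT474 line. Each of the 8 groups held 1 library, so that no spread between replicates could be measured and no p-value is given. A departure of 1 or more shows only that these libraries differ from the sum, and the 95% intervals cover counting error only.

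For each gene, the log2 changes against DMSO with lapatinib alone and with JQ1 alone were summed, and the sum was subtracted from the log2 change with both drugs. The result is called the departure. On the log2 scale a departure of 0 means that the fold changes of the drugs multiplied, a departure of 1 that the gene was 2-fold above that product, and a departure of -1 that it was at 1/2 of it. Values are normalised read counts, which the authors scaled to bring the upper quartile to 1000, and 1 was added before the logarithm. Of the 20531 genes, 10370 had a value of 100 or more in any of the 4 SKBR-3 libraries. Among these 10370 genes, 82 (0.791%) lay above the sum by at least 1, and 405 (3.91%) lay below it by at least 1.

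Most genes followed the sum. The departure was within 0.5 of 0 for 81.3% of genes, with a median of -0.06, a 5th percentile of -0.89 and a 95th percentile of 0.5. A departure of -2 or less was found for 98 genes and one of 2 or more for 8 genes. The counting interval excluded 0 for 390 of the 405 genes below the sum and for 81 of the 82 above it. At the edges of the 2 groups, JAG1, a Notch ligand, had a departure of 1.0, and HPDL one of -1.0. ZNF200 and SMG1P1 were the nearest genes outside, and their departures also round to 1.0 and -1.0.

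The changes can also be added on the linear scale (lapatinib plus JQ1 minus DMSO). The expected level was then 0 or less for 131 of the 405 genes below the log2 sum, and since no value can lie below 0 the linear scale says nothing about their direction. Of the other 274, 207 lay below the linear sum by 1 or more and 2 above it. Of the 82 genes above the log2 sum, 64 had a linear sum over 0, of which 32 lay above it and 4 below. All departures given are on the log2 scale unless stated otherwise.

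**Figure D1:**
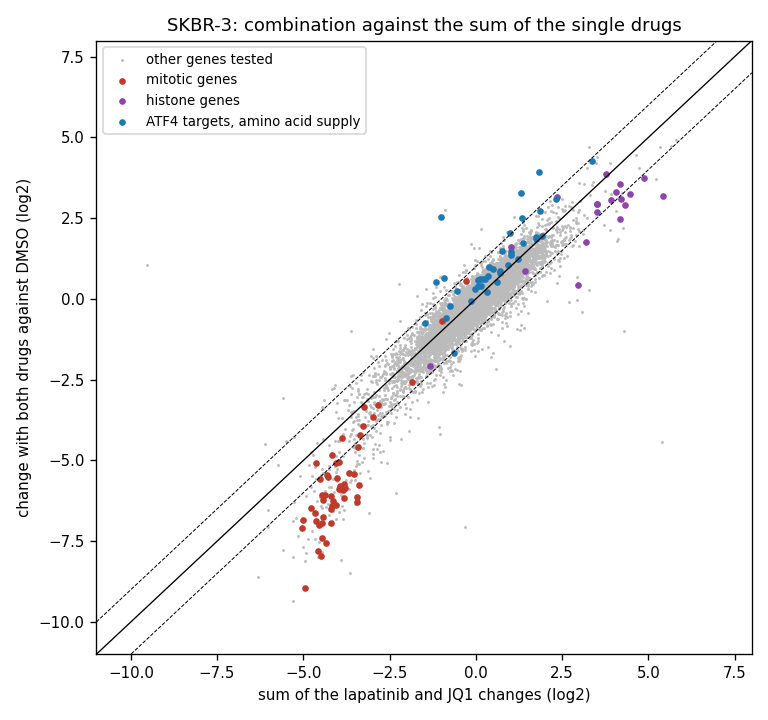
Each point is 1 of the 10370 genes. The x axis is the sum of the separate lapatinib and JQ1 changes in SKBR-3 and the y axis is the change with both drugs, each against DMSO in log2 units. The solid line marks equality and the dashed lines a departure of 1 in either direction. Most mitotic genes lie below the lower dashed line at the left, most histone genes lie under the solid line at the right, and several ATF4 target genes lie above the upper dashed line.

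The labelled identity of the cells was checked against markers. ERBB2 had values from 112656 to 277872 in the 4 SKBR-3 libraries, and the luminal keratins KRT8, KRT18 and KRT19 were at 27500 or more in each. CDH1, the gene of the epithelial adhesion protein E-cadherin, was at or below 15.1, and the hormone receptor genes ESR1 and PGR were at or below 16.8 and 3.06. Of 18 markers of immune, endothelial, stromal and fat cells, 10 had values under 10 in every SKBR-3 library, 3 reached 100 in any of them, and the summed value of the 18 ran from 337 with JQ1 to 660 with lapatinib. The SKBR-3 libraries held from 21420113 to 27143871 reads on genes, and 1 read was worth from 0.644 to 0.766 units.

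The genes below the sum included much of the machinery of cell division. For 304 of the 405 (75.1%, against 33.6% of all genes) the library with both drugs was the lowest of the 4, a rank that shares its values with the rule. Cells duplicate their DNA in S phase and separate the copies in mitosis. The genes for S phase are switched on by E2F factors, which the RB protein restrains until cyclin D and its kinases act, and HER2 signalling feeds into that step. The genes for mitosis are held off in resting cells by the DREAM complex and switched on later by MYBL2 and FOXM1, through a promoter element called the CHR (cell cycle genes homology region) together with CCAAT boxes, which bind NF-Y. BET proteins, the targets of JQ1, bind acetylated histones and help RNA polymerase II to pass from pausing into elongation.

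The promoters of KIF4A, MKI67 and ASPM are shown because these 3 were the mitotic genes farthest below the sum whose 140 bases before the RefSeq transcription start hold both a CHR (TTTGAA) and a CCAAT box on either strand. Each is written in the direction of the gene (GRCh38.p14), and capitals mark the CHR and CCAAT letters. The KIF4A window is chrX:70289964-70290103, plus strand, the MKI67 window is chr10:128126424-128126563, minus strand, and the ASPM window is chr1:197146670-197146809, minus strand. In MKI67 one CHR and one CCAAT box share letters.
KIF4A: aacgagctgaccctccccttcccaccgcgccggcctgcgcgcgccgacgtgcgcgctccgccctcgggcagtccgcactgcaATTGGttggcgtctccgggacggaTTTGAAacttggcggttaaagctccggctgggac
MKI67: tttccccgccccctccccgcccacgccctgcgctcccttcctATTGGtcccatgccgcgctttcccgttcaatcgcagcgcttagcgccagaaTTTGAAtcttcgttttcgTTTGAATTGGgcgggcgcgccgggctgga
ASPM: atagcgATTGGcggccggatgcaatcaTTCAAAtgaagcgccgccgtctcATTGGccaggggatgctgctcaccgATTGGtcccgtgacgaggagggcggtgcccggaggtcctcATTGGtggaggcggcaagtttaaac

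A RefSeq promoter window of 300 bases (250 before the start and 50 after it) was at hand for 8465 of the 10370 genes. The letters TTTGAA occurred on either strand in 9.47% of these windows, in 22.9% of those of genes below the sum and in 11.3% of those of genes above it. In the list of mitotic genes they occurred in 28 of 44 windows (63.6%). Within 4 cell cycle lists (mitosis, replication, recombination and E2F factors), 42.2% of the windows of genes below the sum held them, against 15.5% of the windows of the members that were not below it. Letters of an E2F site (TTTCCCGC, TTTGGCGC or TTTCGCGC) were found in 4.99% of all windows, and in these lists they went the other way, with 23.4% of the windows below the sum and 34.5% of the rest. Both contrasts pool lists that differ in their share below the sum, 79.2% of the mitotic list and 28.6% of the replication list. No comparison within a list was made, so that list membership and departure cannot be told apart here. CCAAT, which can overlap the CHR letters, was found in 37.7% of all windows, in 47% of those below the sum and in 75% of those of mitotic genes. A match describes letters in the window and does not show a bound site.

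The list of mitotic kinases, kinetochore and spindle genes had 53 members tested, of which 42 were below the sum and 0 above it, against 3.91% and 0.791% of all genes. Their median log2 change was -3.52 with lapatinib, -0.52 with JQ1 and -5.93 under both drugs, and their median departure was -1.9. The library with both drugs was the lowest of the 4 for 51 of the 53 genes. In bulk RNA, fewer dividing cells and less mRNA per dividing cell cannot be told apart. Members outside the 42 included the cyclin gene CCNB1 (departure -0.65), the phosphatase gene CDC25A (-0.1) and the checkpoint gene BUB3 (0.3). On the linear scale the expected level was 0 or less for 49 of the 53 genes, so that their departure below the sum is one from multiplied changes and added changes give no comparison.

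MKI67, the gene of the proliferation marker Ki-67, had values of 8462 under DMSO, 538 with lapatinib, 6595 with JQ1 and 44.0 with the combination. Lapatinib alone took it to a low level, JQ1 alone changed it little, and JQ1 added to lapatinib lowered it further. Its departure was -3.22 (95% interval -3.59 to -2.85). KIF4A, a chromosome-bound kinesin, stood at 2324 under DMSO, 144 with lapatinib, 1645 with JQ1 and 8.25 with the combination, with a departure of -3.47 (-4.30 to -2.64). TOP2A, the topoisomerase that untangles replicated DNA, went from 24959 to 2174, 20268 and 347 in the same order, with a departure of -2.34 (-2.48 to -2.21), the narrowest interval of these 3 genes. ASPM, a spindle pole protein, had 3913, 511, 2739 and 54.3, and a departure of -2.69 (-3.04 to -2.35).

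The kinases that drive mitosis followed the same order of libraries. CDK1, the kinase of mitotic entry, had values of 5178 under DMSO, 407 with lapatinib, 4034 with JQ1 and 110 with the combination, and a departure of -1.52 (-1.78 to -1.26). For PLK1, which acts from mitotic entry to cell separation, the departure was -1.84 and the values were 2170, 136, 1065 and 17.9. For BUB1, a spindle checkpoint kinase, it was -2.05, with 1817, 140, 1662 and 30.3. CCNA2 encodes cyclin A, a partner of CDK1 and CDK2, and had a departure of -2.24. The kinetochore genes NDC80 and SPC25 had few reads with both drugs: NDC80, which ties chromosomes to microtubules, had 2 reads there (departure -3.24, interval -5.07 to -1.4), and SPC25, of the same complex, had 0. The departure of SPC25 was -4 with an interval that included 0 (-8.02 to 0.03), and -2.38 with SPC25 set to 3 reads. Setting the list members at 3 reads or fewer to that floor left the median of the list at -1.9.

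**Figure D2:**
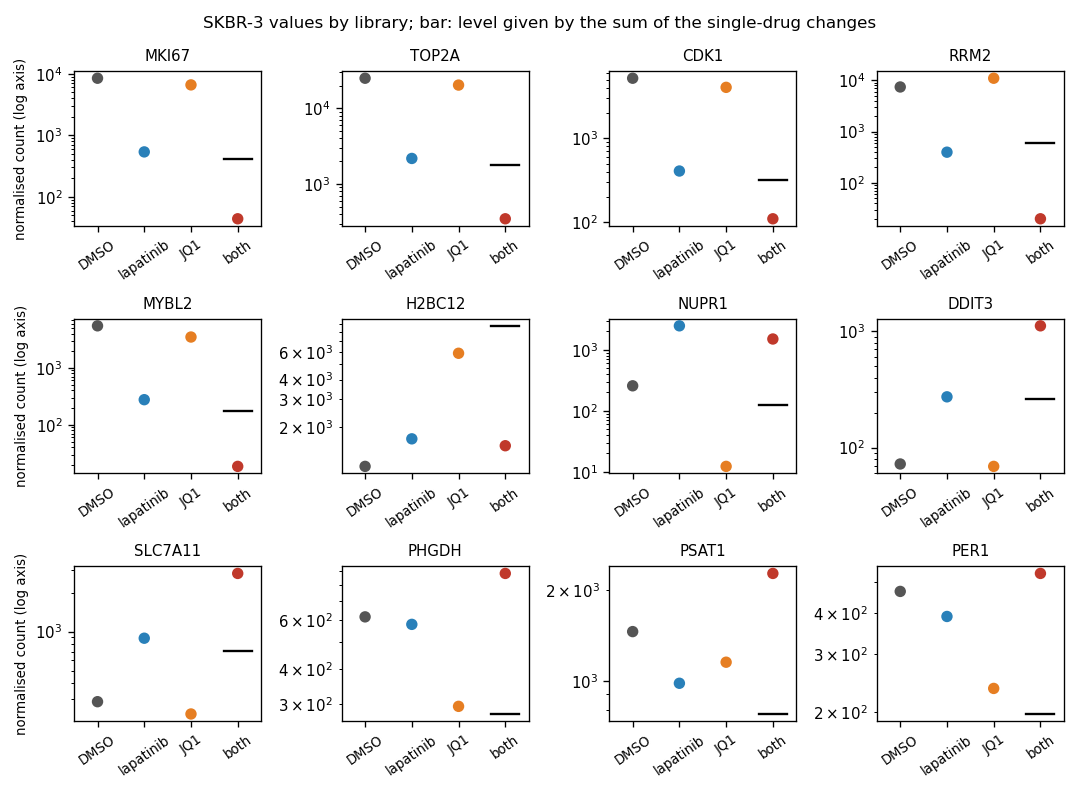
Normalised counts of 12 genes in the 4 SKBR-3 libraries, 1 point per library, on log axes that differ between panels. The black bar over the last column marks the level that the sum of the single-drug log2 changes gives. The point with both drugs lies below the bar for MKI67, TOP2A, CDK1, RRM2, MYBL2 and H2BC12, and above it for NUPR1, DDIT3, SLC7A11, PHGDH, PSAT1 and PER1.

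Of the transcription factors of the cell cycle, some were themselves below the sum. MYBL2 had values of 5467 under DMSO, 276 with lapatinib, 3476 with JQ1 and 18.6 with the combination (departure -3.17, interval -3.73 to -2.61). FOXM1 had 3274, 272, 1348 and 17.9, with a departure of -2.57 (-3.15 to -2.0). Among E2F factors, E2F1 departed by -1.11, E2F2 by -2.2, E2F3 by -1.52, E2F7 by -2.06 and E2F8 by -1.2. The rest of that list stayed near the sum: RB1 had a departure of 0.01, RBL2 of 0.32, E2F4 of -0.3 and the DREAM component LIN9 of -0.09. In all, 7 of the 18 members tested (38.9%, against 3.91% of all genes) were below the sum and 0 above it, and the median departure was -0.35. The linear sum was 0 or less for 6 of the 18, and of the other 12, 2 lay above it and 0 below.

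DNA replication genes had departures from -4.82 to 0.62. Of 42 tested, 12 were below the sum (28.6%, against 3.91% of all genes) and 0 above it, with a median departure of -0.46. The linear sum was 0 or less for 15 of them, and of the other 27, 3 lay above it and 4 below. RRM2, the small subunit of ribonucleotide reductase, which makes the building blocks of DNA, had 7440 under DMSO, 397 with lapatinib, 11020 with JQ1 and 19.9 with the combination. JQ1 raised it when given alone, and it was lowest when JQ1 was added to lapatinib. Its departure of -4.82 (-5.35 to -4.28) was the largest in the 4 cell cycle lists. UHRF1, which directs maintenance methylation of DNA, had 1095, 45.2, 655 and 0.688, the last from 1 read (departure -4.03, interval -6.37 to -1.69). MCM10, which helps to start the replication fork, had a departure of -3.41, and TYMS, the thymidylate synthase, one of -2.03.

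The ring of the replicative helicase stayed within 1 of the sum. MCM2 to MCM7 had departures from -0.76 (MCM2) to -0.1 (MCM7). MCM7 had values of 5031 under DMSO, 591 with lapatinib, 4521 with JQ1 and 494 with the combination, so that its level with both drugs was close to that with lapatinib. PCNA, the sliding clamp of the fork, had 4300, 983, 5064 and 1783, above the sum by 0.62 (0.51 to 0.73) and higher with both drugs than with lapatinib alone.

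In the list of homologous recombination and Fanconi genes, which repair broken and cross-linked DNA, 13 of 30 members (43.3%, against 3.91% of all genes) were below the sum and 0 above it, with a median departure of -0.89. The linear sum was 0 or less for 8 of them, and of the other 22, 1 lay above it and 6 below. RAD51AP1, an accessory protein of homologous recombination, had values of 854 under DMSO, 71.2 with lapatinib, 459 with JQ1 and 2.75 with the combination, and a departure of -3.37 (-4.74 to -2.0) that rests on 4 reads. BRCA1 had a departure of -1.80, BRCA2 of -1.18 and the helicase gene BLM of -2.0. PALB2 (0.05), CHEK2 (0.25) and ATR (-0.18) stayed near the sum. Over the 4 cell cycle lists, 74 of 143 genes tested were below the log2 sum and 0 were above it.

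Genes of the G1 phase did not share one direction. CCND1, cyclin D1, had 4989 under DMSO, 1425 with lapatinib, 8960 with JQ1 and 940 with the combination (departure -1.44, interval -1.55 to -1.34). CDKN1A, the inhibitor p21, departed by -1.17, since JQ1 alone raised it from 155 to 604 and both drugs gave 371. CDKN2D, the inhibitor p19, was above the sum by 1.81 (1.15 to 2.46): lapatinib alone lowered it from 119 to 19.1, and with both drugs it was 127. These 3 were the members called among the 13 tested, with 7.69% above the sum and 15.4% below it, against 0.791% and 3.91% of all genes.

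Other genes far below the sum in company with the cell cycle lists were IQGAP3, a scaffold protein (1654 under DMSO, 183 with lapatinib, 1736 with JQ1 and 15.8 with the combination, departure -3.52), and CKAP2L, a spindle protein (3 reads with both drugs, departure -4.15, interval -5.70 to -2.61). BHLHE40, a transcription factor of the clock and of hypoxia, had 282, 25.3, 610 and 3.44 and a departure of -3.67 (-4.99 to -2.36). TNS4, a focal adhesion protein, was raised by lapatinib from 442 to 635, lowered by JQ1 to 146 and stood at 27.5 with both drugs, a departure of -2.88.

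A second kind of gene below the sum was one that JQ1 alone raised, with a smaller rise or none when lapatinib was present. Of the 257 genes that JQ1 alone raised at least 2-fold, 54 (21%) were below the sum and 5 (1.95%) above it. Over all genes these shares were 3.91% and 0.791%. The class is cut on a library that also enters the departure. MRFAP1L2 had values of 288 under DMSO, 238 with lapatinib, 2950 with JQ1 and 217 with the combination. The rise with JQ1 was absent in the presence of lapatinib, and the departure was -3.48 (-3.75 to -3.21). NUDT19, a hydrolase of coenzyme A, showed the same picture (485, 541, 2827 and 457, departure -2.78), as did C12orf57 (443, 825, 2307 and 538, departure -2.99). DNAH3, a dynein heavy chain, went from 6.44 to 150 with JQ1 and stood at 2.75 with both drugs, or 4 reads (departure -5.27, interval -7.17 to -3.37). DNAH3 reached the value required of a tested gene in the JQ1 library alone, and a high value there also lowers the departure. FASN, the fatty acid synthase, was among the most abundant: 96318 under DMSO, 95035 with lapatinib, 297865 with JQ1 and 126490 with the combination (departure -1.22, interval -1.23 to -1.2).

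Some replication-dependent histone genes, whose transcripts normally lack a poly(A) tail, belong to this kind. The median log2 change of the histone list was 0.31 with lapatinib, 3.22 with JQ1 and 2.94 with the combination. Of 19 tested, 8 were below the sum (42.1%) and 0 above it, with a median departure of -0.84, and the linear scale left 6 below and 0 above. Among the 8, H3C4 and H3C10 reached the value required of a tested gene in the JQ1 library alone, which favours a negative departure. H4C12 reached it with both drugs alone, which favours a positive one. The 42.1% is thus no unbiased comparison with the 3.91% of all genes. With no filter on values the median departure of the list was -0.63. H2BC12 had 1121 under DMSO, 1679 with lapatinib, 5883 with JQ1 and 1518 with the combination, so that the level with both drugs was close to that with lapatinib (departure -2.54, interval -2.65 to -2.42). H2BC4 kept more of its rise, with 34.4, 36.0, 615 and 198 (departure -1.70), as did H2AC6 with 318, 689, 2976 and 2370 (departure -1.44). Histone genes are near-identical to each other, so that the reads of any 1 of them are uncertain.

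Of 28 genes that lapatinib alone lowered and JQ1 alone raised at least 2-fold, 9 (32.1%) were below the sum and 4 (14.3%) above it. Over all genes these shares were 3.91% and 0.791%. Targets of growth factor signalling with these single-drug directions lay on both sides, since EGR1 was above the sum by 1.75. SPRY4, a feedback inhibitor of the MAPK pathway, had 126 under DMSO, 16.8 with lapatinib, 534 with JQ1 and 28.2 with the combination (departure -1.36, interval -2.14 to -0.59). The receptor kinase genes EPHA2 and FGFR3 departed by -1.32 and -1.46. Of 23 receptor kinases tested, 3 (13%, against 3.91% of all genes) were below the sum, these and MST1R (-1.28), and 0 above it. S100A8 and S100A9, which encode the subunits of the calcium-binding protein calprotectin, departed by -2.25 and -1.55, and S100A8 had 220, 75, 867 and 61.9.

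Another kind was raised by lapatinib alone, and this rise was smaller with JQ1 present. Of the 850 genes at least 2-fold higher with lapatinib, 86 (10.1%) were below the sum and 16 above it. Breast secretory products were among them, with 3 of 6 tested members below the sum. SCGB2A2, mammaglobin, had 53 under DMSO, 731 with lapatinib, 1.93 with JQ1 and 7.57 with the combination, a departure of -2.22 (-3.98 to -0.46) with 3 reads in the JQ1 library. AZGP1, a secreted zinc-binding glycoprotein, had 115, 508, 92.1 and 181 (departure -1.17). For PIP, prolactin-induced protein, the departure was -1.4 with an interval that included 0 (-2.86 to 0.07). Others were the protease inhibitor gene SERPINA1 (-1.86), the keratin gene KRT23 (-1.71) and IRF9, a factor of the interferon response (-2.04). SCGB2A2, PIP, SERPINA1, KRT23 and IRF9 reached the value required of a tested gene in the lapatinib library alone. A high value in that library also lowers the departure, so that 3 of 6 cannot be set against the 3.91% of all genes. With no filter on values, the median departure of the secretory list was -0.28, against -1.02 with it.

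Sterol genes gave 4 of 24 members (16.7%, against 3.91% of all genes) below the sum and 0 above it, with a median of -0.19. They included STARD4, a sterol carrier (-1.68), and the synthesis enzyme TM7SF2 (-1.14). Scaling to equal totals left 3 of the 4 past 1. Oxidative phosphorylation subunits gave a small shift with 0 members called: the median of 35 genes was -0.36, and 34 of them were negative, against 57.6% of all genes. Scaled to equal totals, the median was -0.25 and 30 of 35 were negative.

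In the other lists the calls numbered from 0 to 4. Glycolysis genes (24 tested, 12.5% below), MAPK feedback genes (12 tested, 25%) and NF-kB target genes (11 tested, 27.3%) each had 3 members below the sum and 0 above it, and fatty acid synthesis genes had 2 of 19 below (10.5%), against 3.91% of all genes. A single member was below the sum in the keratin, integrin, semaphorin, ABC transporter, lysosome, Krueppel-like, forkhead and interferon lists (2.56% to 9.09% of a list). In the MYC network (9.09%) and Notch (7.14%) lists a single member was above it. Scaling to equal totals left 0 Krueppel-like genes below the sum and put 1 forkhead and 1 semaphorin gene above it. The AP-1 list had 2 of 14 on each side (14.3%), the p53 target list 1 of 20 (5%) and the IGF list 1 of 7 (14.3%). Over all genes 0.791% were above the sum and 3.91% below it. With scaling to equal totals, 1 AP-1 member and 0 IGF members were below the sum. FOXO targets, luminal transcription factors, nuclear receptors, BCL2 family, MHC class I, BET and P-TEFb, epithelial state, ribosomal protein and ribosome biogenesis genes, and the 3 tested markers of other cell types, had 0 members called. At the shares over all genes, lists of these sizes would give few calls or none. Of 5 markers of the lapatinib response 3 (60%, against 3.91% of all genes) were below the sum. Of 5 markers of the JQ1 response 1 (20%, against 0.791% of all genes), IGFBP5, was above it.

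Departures were rare where neither drug alone changed a gene 2-fold. Of 8043 such genes, 82 (1.02%) were below the sum and 22 (0.274%) above it. Where lapatinib alone lowered a gene at least 2-fold and JQ1 did not move it that far, 148 of 735 genes (20.1%) were below the sum, and 66 of these 148 were in the 4 cell cycle lists. The classes and the departure share the single-drug libraries, so that the counts describe the genes and are not a separate measurement.

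**Figure D3:**
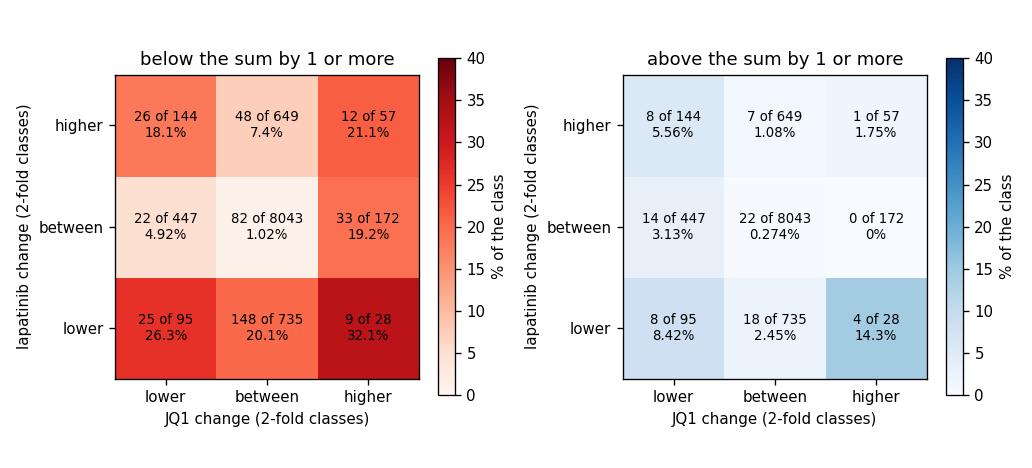
Genes sorted by the change with each drug alone (2-fold higher, 2-fold lower or between), with lapatinib on the y axis and JQ1 on the x axis. Each cell gives how many genes of the class lay below the sum (left, red) or above it (right, blue) by 1 or more, with the percent as colour. The middle cell, with 8043 genes, has the lowest percent below the sum, 1.02%.

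The genes above the sum were fewer, and in 35 of the 82 the library with both drugs was the highest of the 4 (42.7%, against 26.3% of all genes, again with values the rule used). The list with the most members among them was that of ATF4 target and amino acid supply genes. ATF4 is a transcription factor whose translation increases when amino acids run short or proteins misfold in the endoplasmic reticulum. Its targets take up and make amino acids, charge tRNAs and, in DDIT3 (CHOP), encode a factor of stress-induced cell death. Of 39 members tested, 7 were above the sum (17.9%, against 0.791% of all genes) and 1 (2.56%, against 3.91%), the lipoprotein receptor gene VLDLR (-1.05), was below it. With scaling to equal totals 8 were above and 0 below, VLDLR being at -0.94. The median departure was 0.41, 36 of 39 were positive against 42.4% of all genes, and the both-drug library was the highest for 28. On the linear scale 9 of the 39 were above and 1 below.

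HERPUD1 and AARS1 were the genes above the sum whose promoter windows hold the letters of the C/EBP-ATF response element, the site that ATF4 binds with C/EBP partners (TGATGNAA on either strand). HERPUD1 acts in the removal of misfolded proteins, and AARS1 charges tRNA with alanine. The 200 bases before each start are shown in the direction of the gene (GRCh38.p14), with the element in capitals. The HERPUD1 window is chr16:56931942-56932141, plus strand, and the AARS1 window is chr16:70289507-70289706, minus strand.
HERPUD1: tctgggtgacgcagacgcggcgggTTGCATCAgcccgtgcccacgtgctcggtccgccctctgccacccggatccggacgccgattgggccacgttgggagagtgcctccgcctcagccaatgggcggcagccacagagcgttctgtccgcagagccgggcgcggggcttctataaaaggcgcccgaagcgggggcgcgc
AARS1: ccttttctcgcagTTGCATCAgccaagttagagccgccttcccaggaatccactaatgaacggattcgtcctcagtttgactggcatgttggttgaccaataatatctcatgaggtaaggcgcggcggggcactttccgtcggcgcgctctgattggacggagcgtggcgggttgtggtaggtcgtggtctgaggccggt
These letters were found in 1.42% of all windows, in 8 of 31 windows of the ATF4 list (25.8%) and in 2 of 62 windows of genes above the sum (3.23%). The letters TATAAA were found in 5% of all windows, in 17.7% of those above the sum and in 11.3% of those below it.

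NUPR1, a stress-induced nuclear protein, had values of 257 under DMSO, 2477 with lapatinib, 12.2 with JQ1 and 1506 with the combination. JQ1 lowered it strongly when given alone and little when lapatinib was present, and the departure was 3.57 (2.90 to 4.23). DDIT3 had 72.3, 273, 68.9 and 1113: JQ1 alone left it near the DMSO level, and both drugs together gave the highest value (departure 2.09, interval 1.67 to 2.52). SLC7A11, which imports cystine, had 287, 888, 231 and 2813 (departure 1.98, interval 1.75 to 2.20).

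The serine synthesis enzymes PHGDH and PSAT1 were lower with each drug alone and higher with both. PHGDH had 615 under DMSO, 578 with lapatinib, 294 with JQ1 and 879 with the combination (departure 1.66, interval 1.45 to 1.87), and PSAT1 had 1457, 981, 1153 and 2276 (departure 1.55, interval 1.42 to 1.68). The remaining enzyme of that route, PSPH, departed by -0.12. PCK2, a mitochondrial enzyme of gluconeogenesis, had 423, 832, 548 and 2419 (departure 1.17), and AARS1 had 1817, 3171, 2061 and 7520 (departure 1.06). Other tRNA synthetases departed by less, from 0.06 (NARS1) to 0.51 (EPRS1).

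Members of this list that rose steeply but stayed near the sum show that the list did not depart as a whole by 1. ASNS, the asparagine synthetase, had 1140 under DMSO, 2423 with lapatinib, 2699 with JQ1 and 9682 with the combination, and a departure of 0.75 (0.65 to 0.85). CHAC1, which degrades glutathione, had 45.1, 329, 65.1 and 893 (departure 0.92, interval 0.44 to 1.4). ATF4 itself departed by 0.44 and TRIB3, which restrains it, by 0.41.

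Most chaperones and folding enzymes of the endoplasmic reticulum lay on the same side of the sum by smaller amounts. The median of 26 genes was 0.26 and 21 were positive, against 42.4% of all genes, but only 1 (3.85%, against 0.791% of all genes) passed 1. This was HERPUD1, with 2564 under DMSO, 6059 with lapatinib, 1856 with JQ1 and 9706 with the combination (departure 1.15, interval 1.06 to 1.23). The chaperone HSPA5 (BiP) departed by 0.74 and HSP90B1 by 0.64. Heat shock genes of the cytosol had a median of 0.1 with 0 of 20 called.

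The circadian clock list held genes on both sides. DBP, an output factor of the clock, had 213 under DMSO, 347 with lapatinib, 117 with JQ1 and 691 with the combination (departure 1.85, interval 1.54 to 2.16). PER1, a repressor of the clock, had 467, 391, 236 and 530 (departure 1.42, interval 1.17 to 1.66). BHLHE40 and NPAS2 (-2.09) were below the sum, and the other 11 of 15 members were within 1 of it. Each side thus held 13.3% of the list, against 0.791% of all genes above the sum and 3.91% below it. MXI1, an antagonist of MYC, departed by 1.46 (141, 397, 107 and 830).

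Genes above the sum outside these lists had varied patterns. EGR1, an immediate early factor, was 225 under DMSO, 27.6 with lapatinib, 657 with JQ1 and 279 with the combination (departure 1.75, interval 1.23 to 2.27). IGFBP5, a binding protein of insulin-like growth factors, was 17022, 28073, 577 and 2470, so that the fall with JQ1 was smaller with lapatinib present (departure 1.37, interval 1.27 to 1.48). TNFRSF10B, a death receptor for TRAIL, had 185, 132, 86.3 and 166 (departure 1.42). For EGR1, IGFBP5, NUPR1 and the reductase gene DHRS2 (departure 1.23), the linear scale put the level with both drugs below the expected level.

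Some of the largest departures are uncertain as values of single genes. ZNHIT2 had the largest above the sum, 10.56 or, with its empty library at 3 reads, 9.01, but it was listed at 0 with JQ1 (104 under DMSO, 14.1 with lapatinib and 216 with both drugs) and at 0 in the BT474m1 library with DMSO, while its departure in that line was -7.31. EIF3C, an initiation factor subunit, departed by 3.63 with 295, 120, 390 and 1986, and by 3.05 in BT474m1, but it has a near-identical copy with which reads can be divided. OCLNP1, a pseudogene, and CSAG3, one of several near-identical cancer-testis genes, were listed at 0 in SKBR-3 with both drugs only, and their departures with that library at 3 reads were -8.19 and -5.12. DHRS4L2 (2.7) and CKMT1A (-2.26) also have close copies.

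The receptors and transcription factors on which the study centres lay within 1 of the sum. Of 16 tested, 0 were called in either direction, and their median departure was 0.12. Of all genes 0.791% were above the sum and 3.91% below it, so that few calls or none would be expected among 16. ERBB2 had 112656 under DMSO, 277859 with lapatinib, 154570 with JQ1 and 277872 with the combination, below the sum by 0.46. ERBB3, encoding the HER2 partner HER3, had 3623, 9897, 3272 and 7619 (departure -0.23). FOXA1, a pioneer factor of luminal cells, departed by 0.06, and XBP1 by 0.18. DDR1, a collagen receptor kinase, had 6815, 14257, 3637 and 10580 (departure 0.48). The farthest was FOXO3, a forkhead factor that kinase signalling excludes from the nucleus, at 0.68, with 830, 2342, 1186 and 5365. Its reads can be shared with a pseudogene.

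The BT474m1 libraries share no sample with those of SKBR-3 and were not used by the rule. Of the same 10370 genes, 252 (2.43%) were above the sum there and 197 (1.9%) below it. Of the 82 genes above the sum in SKBR-3, 14 (17.1%) were above it in BT474m1, which is 5.56% of the genes above it there. Of the 405 below it, 38 (9.38%) were below it in BT474m1, or 19.3% of the genes below it there. A larger number, 66 (16.3%), were above the sum in BT474m1, and 9 of the 82 (11%) were below it. Across genes, which are not independent replicates, departures in SKBR-3 and BT474m1 were correlated with a Pearson r of -0.029 and a Spearman rho of 0.073.

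**Figure D4:**
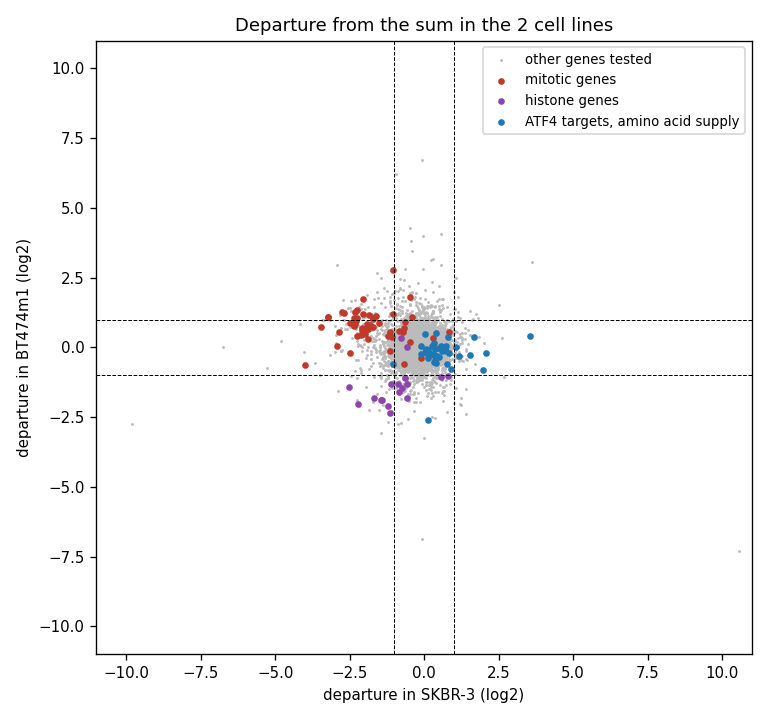
Departure in SKBR-3 on the x axis against departure in BT474m1 on the y axis for the 10370 genes, in log2 units, with dashed lines at 1 and -1. Most mitotic genes lie to the left of 0 and above it, most histone genes to the left and below it, and most ATF4 target genes to the right of 0 and near it on the y axis.

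The mitotic list had a median departure of 0.74 in BT474m1, with 18 of 53 genes above the sum and 0 below it where 2.43% and 1.9% of all genes were, against -1.9 and 42 below in SKBR-3. In BT474m1 the median log2 change of the list was -4.53 with lapatinib, -0.93 with JQ1 and -4.55 under both drugs, so that the level with both drugs was that with lapatinib alone. MKI67 shows it: the BT474m1 values were 2740 under DMSO, 54.8 with lapatinib, 1275 with JQ1 and 54.2 with the combination (departure 1.09). In SKBR-3 lapatinib alone left MKI67 at 538, and both drugs brought it to 44.0. Of the 143 genes of the 4 lists, 37 were above the sum in BT474m1 and 1 below it, and 22 of the 37 were below it in SKBR-3. RRM2 had a departure of 0.24 in BT474m1, where lapatinib alone took it from 4393 to 31.3 and both drugs gave 29.7.

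**Figure D5:**
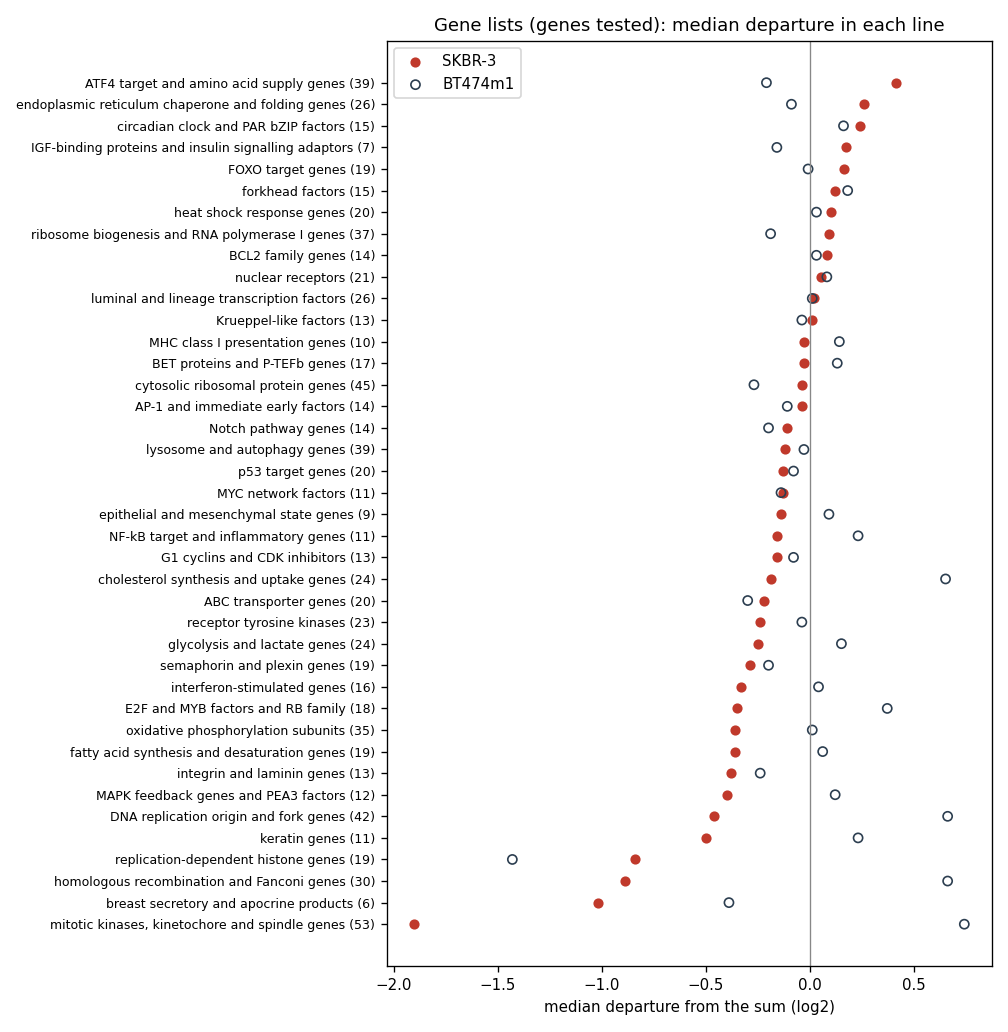
Median departure from the sum of each gene list with 5 or more genes tested (number in parentheses), in SKBR-3 (filled) and BT474m1 (open), in log2 units. The mitotic list is at -1.9 in SKBR-3 and at 0.74 in BT474m1, the histone list is below 0 in both lines, and the ATF4 target list is at 0.41 and -0.21.

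The histone list had a negative median in both lines, -0.84 in SKBR-3 with 8 of 19 genes past -1 and -1.43 in BT474m1 with 16 of 19. Of all genes, 1.9% were past -1 in BT474m1, whose libraries the filter on values did not use. The SKBR-3 share depends partly on that filter, as stated above. The departure of H2BC12 was -2.54 in SKBR-3 against -1.43 in BT474m1, that of H2AC6 -1.44 against -1.9. The ATF4 list was not above the sum in BT474m1, with a median of -0.21, 0 of 39 members above and 11 positive. SLC7A11 fell there from 156 with DMSO to 37.2 with JQ1 and 23.3 with the combination (departure -0.82), and DDIT3 had 319, 709, 446 and 854 (departure -0.21). Sterol genes had a median of 0.65 in BT474m1, with 5 of 24 above the sum, against 2.43% of all genes, and 0 below it.

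The genes farthest on the same side in both lines were few. Above the sum, beside EIF3C, these included TAF5, a subunit of TFIID (1.53 in SKBR-3 and 1.30 in BT474m1), EGR1 (1.75 and 1.2), BDKRB2, a bradykinin receptor (1.15 and 1.26), the retinal reductase gene DHRS3 (1.07 and 2.51) and the cathepsin gene CTSV (1.14 and 1.81). CDKN2D was above it in both (1.81 and 1.04). Below the sum in both were RAB37, a vesicle GTPase (-2.18 and -2.11), TNIK, a kinase of the Wnt pathway (-1.71 and -1.97), TNS4 (-1.55 in BT474m1), CCND1 (-1.44 and -1.39) and SERPINA1 (-1.86 and -2.24).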

How the data were processed

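Poly(A) RNA was sequenced from 2 cell lines under 4 treatments, and groups and times were taken from the labels. The study's methods name a shorter treatment for its cell lines, whereas a legend with SKBR-3 RNA sequencing values names the labelled time, and the labels name 2 different library kits. The deposited signal per gene is a read count estimated with RSEM, which the authors scaled to an upper quartile of 1000 among genes above 0, pooling no samples. The submitters' processing notes list hg19, Picard 1.88, SAMtools 1.2, R 3.2.2 and DESeq2 1.12.3, whereas the study's methods name hg38, STAR and Salmon, so no gene positions are given beside the RefSeq promoters.

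Departures were computed on log2(value + 1) in Python 3.11.15 (numpy 2.4.6, pandas 2.3.3, scipy 1.17.1, matplotlib 3.10.9) for genes at 100 or more in any SKBR-3 library, called at 1. The value of 1 read was recovered as the common step between values (83.3% to 84.6% of values up to 1000 came out whole within 0.02 reads), giving 21420113 to 34112379 reads per library. Intervals (95%) used the delta method on 4 Poisson counts with 0.5 added to each. These cover counting error only, since PCR copies without molecular identifiers were counted. The floor was 3 reads. RefSeq promoters were matched by Entrez identifier. In simulated data with these depths and counting error only (10370 genes), 100 of 100 raised and 100 of 100 lowered departures of 2 were recovered, and 14 of 10170 others passed 1. The simulation held no spread between cultures or library preparations, so that 14 is not a rate of false calls for the real libraries.

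Members and 44 gene lists were chosen with earlier results of these data known. The text names the 15 genes on each side with the interval bound farthest from 0, called list members, genes the study discusses, the 8 shared genes on each side and the 5 opposite genes of each kind between lines, and the genes nearest each threshold, from which it gives a selection. List members under the threshold, PIP and SPC25 were chosen after their values were seen. The values of a few genes are not reported here.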

Additional observations from a re-analysis of the deposited data

Results flagged for a closer look

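Each difference between the lines given here was not tested, since each treatment had 1 library per line. Of the genes below the sum in SKBR-3, 66 were above it in BT474m1, and 9 were below it there after being above it in SKBR-3. The median departure in BT474m1 was 0.74 for the mitotic list and 0.66 for the homologous recombination list, both of opposite sign to SKBR-3.

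Named genes below the sum in SKBR-3 were above it in BT474m1, with departures there of 1.09 for MKI67, 1.23 for ASPM, 1.2 for BUB1, 1.35 for CCNA2, 1.11 for NDC80, 1.16 for PLK1, 2.77 for NUSAP1, 1.10 for BLM, 1.11 for BRCA2, 1.13 for TYMS, 1.71 for FAM111B, a protease of S phase, 1.70 for PHLDA2, an imprinted growth regulator, 1.75 for STARD4 and 2.86 for HPDL. The BT474m1 values of HPDL were 17 or less. Named genes above the sum in SKBR-3 were below it in BT474m1, with departures there of -2.06 for DHRS2, -1.04 for DHRS4L2, -2.0 for JAG1, -1.82 for BMP3 and -7.31 for ZNHIT2. BMP3, a bone morphogenetic protein, had values of 10.2 or less in BT474m1.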

How the results depend on the processing

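No paired analysis was possible because each group held 1 library, and for the same reason no library could be left out. Scaling to equal totals moved the median departure from -0.06 to 0.05, and the share of calls above the sum from 16.8% to 24.8%, with 109 genes above and 331 below. Median-of-ratios scaling (99 and 363), a pseudocount of 10 (59 and 332) and a mean of 100 or more (59 and 336) kept both counts within 1.5 times. With no filter, 922 genes were above the sum and 1514 below it, of which 141 and 192 were shared with BT474m1. With 100 or more in each of the 4 libraries the counts were 29 and 119, of which 3 and 11 were shared, and this filter removes genes that fell to low values. The shared genes above were 6 with a pseudocount of 10, and those below were 23 with a mean of 100 or more and also with 100 or more in both lines, which was chosen after seeing the data. On the linear scale 619 genes were above and 454 below, 57.7% of the calls were above, and 304 and 100 genes were shared. Of the 10370 genes, 373 had a linear sum of 0 or less, and of the other 9997, 252 were above it and 454 below. The mean departure in place of the median was -0.85 for the replication list, -0.74 for the E2F list and 0.60 for the ATF4 list. The median of the mitotic list was -1.38 with a pseudocount of 10, and that of the ATF4 list 0.52 with equal totals. Equal totals left 39 mitotic, 10 recombination, 7 histone and 2 glycolysis genes below the sum. Of 114 genes examined one by one, 0 changed sign with either scaling or a pseudocount of 10, and 23 did on the linear scale. For 19 of these the linear sum was 0 or less and was set to 0, so that the value given is only the log2 level with both drugs and its sign is fixed: MKI67 (5.49), KIF4A (3.21), CKAP2L (1.62), MYBL2 (4.29), ASPM (5.79), BRCA1 (4.39), BUB1 (4.97), CCNA2 (4.32), CDK1 (6.80), FOXM1 (4.24), MCM10 (1.91), NDC80 (1.25), NUSAP1 (6.71), PLK1 (4.24), RAD51AP1 (1.91), TOP2A (8.44), TYMS (4.86), UHRF1 (0.76) and HPDL (4.65). The other 4 were NUPR1 (-0.57), IGFBP5 (-2.23), EGR1 (-0.72) and DHRS2 (-0.69). Depth limits the 18 genes below the sum that had 3 reads or fewer with both drugs. Without genes that had 3 reads or fewer in any SKBR-3 library, a choice made after seeing the data, 81 genes were above the sum and 384 below it.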
